A study of Mus musculus with 138 samples.

Results

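Whole calvarial sutures of wild-type C57BL/6J mouse embryos at E18.5 were measured by bulk RNA sequencing, in coronal, frontal, lambdoid and sagittal samples. These 16 libraries, of 138 samples in the series, were chosen by their titles, which call them controls for normalization and name the region a complete suture. Each suture was sequenced 4 times. The titles carry the code C, IF, L or S, which is also the code of the coronal, frontal, lambdoid or sagittal libraries, and the 4 sutures under 1 code are called a set here (set C, IF, L or S). The labels do not say what a set shares beyond this code. All 16 libraries carry replicate number 1 and no litter, so the 4 libraries of a suture are repeats of 1 sample, and the labels do not give the number of embryos behind it. A difference between complete sutures is therefore a difference between 4 samples, each measured 4 times, and no p-value is given for it. The captured libraries used for comparison hold the suture mesenchyme (SM, 20 libraries) and the osteogenic fronts (OF, 30 libraries) at E18.5, with 5 replicate numbers a suture. Their labels give 20 litter identifiers, each taken here as 1 embryo, so 5 embryos a suture. All libraries share strain, genotype and age, and their labels give the same laser-capture, RNA extraction and amplification protocol.

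A calvarial suture is the soft joint between flat bones of the skull. Osteoblasts that form from progenitors at the osteogenic fronts lay down new bone matrix, while the fibrous mesenchyme of the joint stays unmineralized. The frontal suture lies between bones of neural crest origin, the coronal suture lies at the border of neural crest and mesoderm, and the lambdoid suture borders the interparietal bone at the back of the skull. A complete suture can also hold osteoclasts, which resorb bone, together with dura mater under the bone, cartilage of the skull base and side wall, muscle, vessels and immune cells. In bulk RNA, fewer cells of a type and less RNA per cell cannot be told apart.

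The complete libraries held 8903413 to 15155332 counts. Sets C and S were deeper (14088921 to 15155332 counts) than sets IF and L (8903413 to 11621958 counts), in every suture. Genes with at least 1 CPM (counts scaled to equal library totals) in over 10% of the 16 libraries were kept, 19711 in all, and values are CPM scaled by the TMM method. Every library held reads of 4 Y-linked genes (388 to 1277 counts a gene) and 0 to 14 counts of Xist, the RNA of the inactive X chromosome of females. Repeats of a suture differed by more than counting error, with a chi-square of 5.97 to 71.5 per degree of freedom over 24 pairs of libraries, so none of the 16 was taken for a repeated deposit of another.

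The suture set the libraries apart more than the set did. Of the summed squared deviations of log2 CPM over all genes, 45.3% lay between sutures, 26.2% between sets and 28.5% in the rest. Taken gene by gene, the median shares lay closer together, at 32.5%, 26.5% and 26.3%. The library with the highest correlation to each library was one of the same suture in 16 of 16 cases. Across genes, which are not independent replicates, Pearson's r was 0.94 to 0.972 between libraries of the same suture and 0.923 to 0.957 between different sutures of the same set. Within a suture, sets C and S (r of 0.967 to 0.972) and sets IF and L (0.963 to 0.969) were the closest pairs. The coefficient of variation between repeat libraries, with suture and set as terms, was 13.5%.

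**Figure D1:**
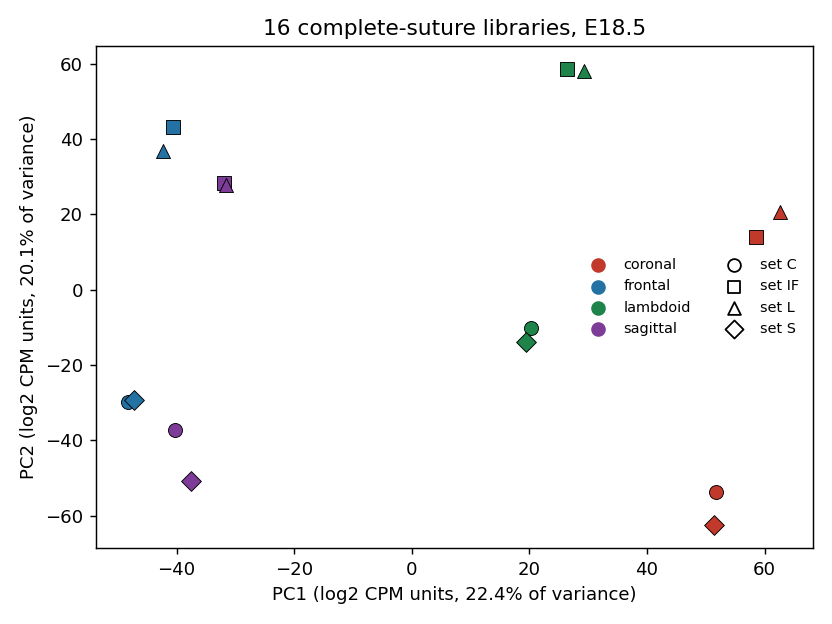
First and second principal components of log2 CPM of 19711 genes in the 16 complete-suture libraries (colour, suture; symbol, set; axes in log2 CPM units). PC1 (22.4% of the variance) runs from frontal and sagittal libraries at -31.6 or less to coronal libraries at 51.4 or more, and PC2 (20.1%) places sets IF and L above sets C and S in every suture.

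Each suture was then set against the mean of the other 3 within each set. A gene was called where its log2 CPM differed by at least 1 (2-fold) in the same direction in all 4 sets, a rule of size that stands in for a test. Of 19711 genes, 374 were called higher in the coronal suture (1.9%) and 367 lower (1.86%). In the frontal suture 485 were called, of which 289 were higher (1.47%) and the rest lower (0.994%). In the lambdoid suture 311 were higher (1.58%) and 47 lower (0.238%), and in the sagittal suture 133 were higher (0.675%) and 234 lower (1.19%). Counts of list members in the complete sutures, given below, are to be read beside these shares of all genes. By construction, a gene that is low in 1 suture raises the differences of the remaining 3, and one that is high in 1 suture lowers them. Counted against each other suture separately, 106 genes were higher and 98 lower in coronal, 72 and 15 in frontal, 103 and 4 in lambdoid, and 19 and 15 in sagittal sutures. Over all genes, the SD of a difference over the 4 sets had a median of 0.27 to 0.29 on the log2 scale, depending on the suture.

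The complete coronal suture stood out by genes of osteoclasts. Of 11 osteoclast genes measured, 10 were higher in it, with a median difference of 4.6 on the log2 scale against 0 for all genes. Mmp9, a gelatinase abundant in osteoclasts (chr2:164940780-164955850, mm10), stood at 449, 361, 363 and 455 CPM in the coronal libraries of sets C, IF, L and S, against 1.45 to 73.3 CPM (median 9.15) in the other 12 libraries. Oscar, the osteoclast-associated receptor (chr7:3609813-3616157), stood at 27.2, 26.5, 27.1 and 19.2 CPM against 0 to 2.01 CPM. Acp5, the tartrate-resistant acid phosphatase by which osteoclasts are stained (chr9:22126727-22135711), stood at 389, 228, 232 and 360 CPM against 4.09 to 40.2 CPM. These 3 genes and Calcr were named by their gap to the nearest suture, so that their lack of overlap between coronal and other libraries follows largely from that choice. Calcr, the calcitonin receptor (chr6:3685680-3764714), had 7.75 to 9.28 CPM in coronal and at most 0.911 CPM in other libraries. Atp6v0d2, a subunit of the proton pump that acidifies the resorption pit, had 96.2, 113, 102 and 98.5 CPM against 0.151 to 25.9 CPM, the largest difference of the list (5.64 ± 0.17, SD over the 4 sets). Ctsk, cathepsin K, which cleaves bone collagen, had 458 to 514 CPM in coronal and 103 to 156 CPM in other libraries. The lambdoid suture held the next level: Mmp9 (53.7 to 73.3 CPM), Atp6v0d2 (19.6 to 25.9 CPM) and Dcstamp (2.29 to 3.64 CPM), a receptor needed for the fusion of osteoclast precursors, were called higher there too. In the frontal and sagittal sutures 6 and 8 of the 11 genes were called lower.

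Genes of bone formation followed the same order of sutures in part. Of 18 osteoblast genes, 13 were higher in the coronal suture (median difference 1.39), among them Sp7, the transcription factor of the osteoblast lineage, Alpl, the phosphatase of mineralizing cells, and Phex. Spp1 (osteopontin) stood at 3400, 2860, 2670 and 4100 CPM in coronal libraries and at 466 to 2470 CPM in the other 12. Vdr, the vitamin D receptor, stood at 140, 151, 140 and 147 CPM against 15.9 to 96.8 CPM. Bglap and Bglap2, the near-identical osteocalcin genes between which reads cannot be assigned with certainty, had 56.8 to 165 CPM and 63.9 to 164 CPM in coronal libraries, with both values of sets C and S above those of sets IF and L. In other libraries they reached at most 50.5 and 39.8 CPM. The sagittal suture had 9 of the 18 genes lower and the frontal suture 6, and neither had 1 higher. In the lambdoid suture Mepe and Sost, genes of osteocytes, were higher (3.01 to 6.31 and 5.72 to 7.14 CPM) and none was lower.

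Genes of the dura mater and meninges were split between sutures. Ptgds, the prostaglandin D synthase of the meninges (chr2:25466709-25470046), was named by its gap to the nearest suture too, from which its lack of overlap largely follows. It stood at 384, 325, 321 and 329 CPM in coronal libraries and at 3.34 to 35 CPM in all others. With it, the transporters Slc22a6 (12 to 17.4 CPM against at most 2.06 CPM) and Slc6a13 (10 to 12.1 CPM against at most 3.71 CPM) were higher. In the frontal suture, by contrast, Ptgds was called lower (3.34 to 6.59 CPM), and the gap junction genes Gjb2 (18.9 to 29.6 CPM against 1.09 to 6.89 CPM) and Gjb6 (29.6 to 43.2 CPM against 2.46 to 7.85 CPM), the retinaldehyde dehydrogenase gene Aldh1a2 (28.3 to 39.1 CPM against 3.99 to 15.4 CPM) and the chemokine gene Cxcl12 were higher. Of 13 genes of this list, 3 were higher and 2 (Cxcl12 and Foxd1) lower in coronal, 4 and 1 in frontal, 0 and 1 in lambdoid, and 0 and 4 in sagittal sutures. Of all genes, 1.9% were higher and 1.86% lower in coronal, 1.47% and 0.994% in frontal, 1.58% and 0.238% in lambdoid, and 0.675% and 1.19% in sagittal sutures. The summed level of the list was 559 to 731 CPM in coronal, 512 to 669 CPM in frontal, 316 to 455 CPM in lambdoid and 303 to 421 CPM in sagittal libraries.

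Gpha2, a glycoprotein hormone subunit (chr19:6226380-6227768), was a further coronal gene named by its gap to the nearest suture (12.9 to 34.4 CPM against 0.371 to 5.3 CPM). Hhip, an inhibitor that binds hedgehog ligands (chr8:79965851-80058006), stood at 85.9, 98, 113 and 76.2 CPM in coronal libraries and at 19.3 to 33.8 CPM in the other 12. Its difference was 1.84 ± 0.11, and it was the only gene of the suture mesenchyme list (16 measured) called in this suture.

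Among genes lower in the coronal suture, those of mast cells and cartilage were prominent. Of 7 mast cell genes, 6 were lower, with Cpa3, the mast cell carboxypeptidase (chr3:20215620-20242181), at 4, 1.67, 2.38 and 5.46 CPM against 24.6 to 103 CPM. The chymase gene Cma1 (1.03 to 4.73 CPM against 16.3 to 100 CPM) and the tryptase gene Tpsb2 (2.17 to 3.64 CPM against 9.2 to 39.1 CPM) had the same order without overlap. Of 17 cartilage genes, 15 were lower and 1, Col11a2, was higher, against a mean that held the high lambdoid level (6080 to 9200 CPM summed over the list). The list summed to 604 to 859 CPM in coronal libraries, above the frontal ones (331 to 391 CPM). Epyc, a cartilage proteoglycan (chr10:97644068-97682454), had 1.53 to 3.93 CPM against 15.9 to 43.7 CPM. Lrp1b, a receptor of the LDL receptor family (chr2:40595246-42653624), had 0.919 to 1.43 CPM against 7.42 to 40.3 CPM, and Tmem200a (chr10:25912331-26079052) 1.09 to 1.42 CPM against 9.94 to 24.2 CPM. Sfrp2, a secreted modulator of Wnt signalling, was at 118, 118, 100 and 162 CPM, below all others (178 to 1930 CPM).

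Several of the leading frontal genes encode transcription factors. Tfap2b, an AP-2 factor expressed in the neural crest (chr1:19208914-19238576), stood at 87.3, 109, 82.5 and 102 CPM in frontal libraries and at 0 to 3.93 CPM (median 1.21) in the other 12. Its paralog Tfap2a (chr13:40715302-40738376) stood at 11.6, 7.79, 8.17 and 11.6 CPM against 0 to 0.996 CPM. Shox2, a homeobox gene (chr3:66971727-66981771), stood at 9.43, 7.95, 10.4 and 12.7 CPM against 0.143 to 1.9 CPM. These 3 genes were named by their gap to the nearest suture, so that their lack of overlap between frontal and other libraries follows largely from that choice. Pax3, a factor of the early neural crest (1.12 to 2.88 CPM against at most 1.36 CPM), Tbx18, Emx2 and Alx1 were called with them. Of 27 skull patterning factors measured, 7 were higher in the frontal and 4 in the coronal suture, Alx1 in both, while 2 and 6 were lower. Eya4, a transcriptional coactivator (chr10:23102963-23350786), had the least spread among the 8 frontal genes named as higher by their gap, 62.8 to 74.7 CPM against 11.2 to 15.6 CPM (2.4 ± 0.07).

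Adcyap1, Hpse2, Cldn11 and Aox3 were further leading frontal genes, named by the same gap. Adcyap1, which encodes the neuropeptide PACAP (chr17:93199017-93206537), stood at 29.6, 19.3, 22.5 and 21.8 CPM and at 0 to 0.703 CPM in other libraries, with a median of 0. Hpse2, heparanase 2 (chr19:42786539-43388355), had 9.43 to 11.3 CPM against 0 to 0.502 CPM. Cldn11, a tight junction claudin (chr3:31149920-31164324), had 44.5 to 63.3 CPM against 3.38 to 10.7 CPM, and the aldehyde oxidase Aox3 (chr1:58113130-58200698) 4.19 to 7.07 CPM against at most 0.713 CPM. Mast cell genes were highest here, with 5 of 7 called higher: Cpa3 had 76.9 to 103 CPM against 1.67 to 46.1 CPM, and Hdc, which makes histamine, 45.1 to 52.5 CPM against 3.85 to 35.2 CPM. Vwf, the von Willebrand factor of endothelium, was at 95.9 to 126 CPM in frontal and 4.36 to 49.3 CPM in other libraries, the only 1 of 10 endothelial genes called higher. Sfrp1 (117 to 135 CPM against 26.9 to 66.3 CPM), Fgf7 and Chrdl1, a BMP antagonist (94.4 to 128 CPM against 26 to 70.7 CPM), were called higher as well.

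Cartilage and muscle genes were low in frontal libraries, and some of them were near 0. Matn1, a cartilage matrix protein (chr4:130944385-130955475), stood at 0.21, 0, 0.0928 and 0.128 CPM there and at 3.56 to 550 CPM elsewhere. Susd5 (chr9:114057140-114098728) and the cytokine-like gene Cytl1 (chr5:37735519-37739820) had at most 0.397 and 0.557 CPM against at least 3.18 and 1.19 CPM, and Mamdc2 (chr19:23302609-23448442) 8.73 to 10.3 CPM against 27.6 to 103 CPM. Snorc, a chondrocyte proteoglycan gene, had no count in any frontal library. Of 17 cartilage genes 11 were called lower, and 2 lay above the mean of the other sutures in every set. Of 13 skeletal muscle genes 9 were lower and Actn3 was higher in the frontal suture.

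The lambdoid suture was set apart by cartilage and skeletal muscle genes. Of 17 cartilage genes 16 were higher, with a median difference of 3.44. Col2a1, the chain of type II collagen (chr15:97975602-98004695), stood at 3540, 2730, 2550 and 4310 CPM in lambdoid libraries and at 30.5 to 792 CPM in others. Matn1 stood at 525, 326, 384 and 550 CPM against 0 to 67.8 CPM, and Matn3 at 47.7 to 58.3 CPM against 0.0928 to 15.3 CPM. Sox9 and Sox5, the factors that drive cartilage genes, and Acan, the main cartilage proteoglycan, were among the 16. Susd5 (86.6 to 103 CPM against 0.186 to 15.4 CPM) and Meltf, melanotransferrin (chr16:31878810-31899020), at 31 to 48.9 CPM against 0 to 5.19 CPM, were named by the same rule. In the sagittal suture 7 of the 17 cartilage genes were called higher as well: Matn1 had 59.5, 36.7, 43.7 and 67.8 CPM and Ucma 13.4 to 20.4 CPM in them.

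Of 13 skeletal muscle genes, 12 were higher in the lambdoid suture (median difference 4.07) and 9 in the coronal suture (1.89). Ttn, the giant sarcomere protein titin, stood at 1120, 1320, 1320 and 1360 CPM in lambdoid libraries, at 542 to 615 CPM in coronal libraries and at 5.87 to 13.9 CPM in the frontal and sagittal ones. Myh3, the embryonic myosin heavy chain, had the same order, with 133 to 259 CPM, 34.1 to 87.3 CPM and 0 to 1.19 CPM. Actc1, the alpha actin of heart and of developing skeletal muscle (chr2:114047282-114053548), stood at 136, 156, 172 and 127 CPM against 0.0905 to 24.9 CPM. Tnni1, the slow muscle troponin I (chr1:135779434-135810989), had 8.33 to 14.6 CPM against 0 to 1.65 CPM. The 3 levels of Ttn did not overlap, and in the sagittal suture 9 of the 13 genes were called lower.

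Few genes were lower in the lambdoid suture. They included the homeobox gene Alx1 (chr10:102998707-103030215), at 4.16, 3.82, 5.37 and 5.13 CPM against 11.1 to 38.1 CPM, and the fibroblast matrix gene Dpt (chr1:164796644-164824266), at 1.41 to 2.37 CPM against 5.48 to 31.5 CPM. Rspo1, which strengthens Wnt signalling (chr4:124986430-125009099), had 1.18 to 4.09 CPM against 6.35 to 13.6 CPM, and the dipeptidase Dpep1 (chr8:123186242-123201812) 4.92 to 10.2 CPM against 15.5 to 38.9 CPM. The suture mesenchyme genes Pi16, Igfbp3 and Col8a1 were also lower. In captured lambdoid SM, tested below, Pi16 and Igfbp3 were instead called higher. There, 4 of the 16 genes of this list were higher and 4 lower, beside 11.2% and 10.4% of all genes. Among growth factor receptors, Fgfr3 (58.1 to 87.4 CPM against 13.7 to 45.3 CPM) and Fgfr4 were higher and the ligand Fgf10 lower. Ncmap (chr4:135369576-135398227) and Kctd4 (chr14:75955009-75966206) completed the genes named, with 6.83 to 12.4 CPM against at most 1.2 CPM and 14.2 to 18.8 CPM against at most 3.01 CPM.

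The sagittal suture differed least when counted against each other suture, and its leading genes were of lower fold. Ptprt, a receptor tyrosine phosphatase (chr2:161521990-162661147), stood at 10.6, 15.8, 14.2 and 12.4 CPM in sagittal libraries and at 0.279 to 2.58 CPM in others. Tac1, the precursor of substance P (chr6:7554879-7565834), stood at 65.8, 38.4, 35.4 and 57.1 CPM against 2.84 to 11.9 CPM. Lrp1b stood at 36.2, 40.3, 36.9 and 31.3 CPM against 0.919 to 11.3 CPM, so that this receptor was highest here and lowest in the coronal suture. Mab21l1 (chr3:55782510-55785001) had 14.8 to 19 CPM against 1.74 to 8.53 CPM. Thbs2, thrombospondin 2 (chr17:14665500-14694235), was an abundant gene at 2650, 3450, 3460 and 2350 CPM against 738 to 1620 CPM (1.45 ± 0.04). Trac, the constant region of the T cell receptor alpha chain (chr14:54220521-54224206), had 5.27 to 8.33 CPM against 0.502 to 2.38 CPM.

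Beside the 7 cartilage genes, skull patterning factors and tendon genes had the most members called higher in the sagittal suture. Of the 27 patterning factors, 5 were higher, with Zic1, Zic4, Lmx1b and Msx2 among them, and 1 was lower. Zic4 stood at 99.1, 113, 115 and 116 CPM against 10 to 52.2 CPM, and Zic1 at 189, 210, 168 and 209 CPM against 34.9 to 98 CPM. Zic1, Zic4 and Lmx1b were called lower in the coronal suture, which had 34.9 to 42.8 CPM of Zic1. Of 28 Wnt ligands and antagonists, 2 were higher and 3 lower, and Sfrp2 was one of the higher ones. It stood at 1660, 1820, 1430 and 1930 CPM in sagittal libraries, above frontal ones (797 to 1120 CPM), while the lambdoid libraries (178 to 305 CPM) and coronal libraries (100 to 162 CPM) were called lower. Of 8 tendon genes, Tnmd (tenomodulin), Scx (scleraxis, the transcription factor of tendon progenitors), Fmod (713 to 822 CPM against 207 to 434 CPM) and Chodl (chr16:78930948-78951733, 72.8 to 94.1 CPM against 9.94 to 31.9 CPM) were higher. Tnmd in frontal libraries (139 to 225 CPM) overlapped the sagittal ones (149 to 255 CPM). Col8a1 was the only suture mesenchyme gene called higher, at 1200, 1210, 1160 and 1190 CPM against 298 to 885 CPM.

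Lower in the sagittal suture were Gpx3, the secreted glutathione peroxidase (chr11:54902453-54910377), at 32.7, 23.1, 17.3 and 28.3 CPM against 74 to 166 CPM, and Entpd3, an enzyme that splits extracellular ATP (chr9:120539818-120568327), at 7.88 to 11.5 CPM against 24.5 to 38.4 CPM. Scube1 (chr15:83604999-83725021) had 1.58 to 2.81 CPM against 10.1 to 22.5 CPM, and Pdlim3, which binds actin filaments (chr8:45885461-45919548), 0 to 0.797 CPM against 3.2 to 9.32 CPM. Ocstamp and Dcstamp, both genes of osteoclast fusion, had counts in 1 of 4 sagittal libraries each.

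**Figure D2:**
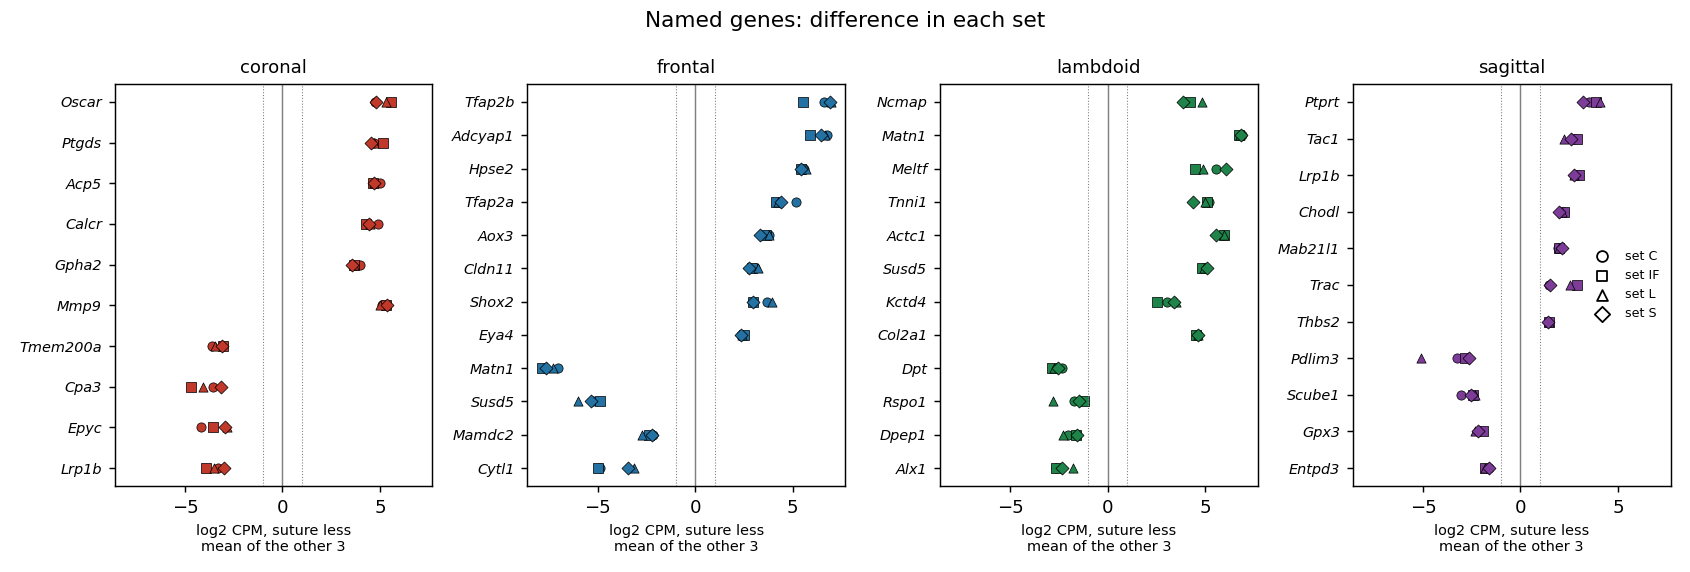
Difference in log2 CPM (horizontal axis) between a suture and the mean of the other 3 within each set, for genes named among the 8 higher and 4 lower with the widest gap to the nearest suture (1 panel a suture, 1 symbol a set, dotted lines at 2-fold). All 4 symbols of every gene lie beyond the same dotted line, for example at 6.51 ± 0.65 for Tfap2b and -7.47 ± 0.38 for Matn1 in frontal and at 6.83 ± 0.07 for Matn1 in lambdoid sutures.

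Members of the signalling pathways that pattern sutures were counted by the same rule, beside shares of all genes of 1.9% higher and 1.86% lower in coronal, 1.47% and 0.994% in frontal, 1.58% and 0.238% in lambdoid, and 0.675% and 1.19% in sagittal sutures. Of 14 hedgehog genes, Hhip was higher and the co-receptor Gas1 lower (25.6 to 33.8 CPM against 48.3 to 100 CPM) in the coronal suture, and none was called in the others. The list summed to 772 to 1070 CPM over all 16 libraries. Of 28 Wnt ligands and antagonists, 2 were higher and 3 lower in coronal, 2 and 0 in frontal, and 0 and 2 in lambdoid sutures. Wif1, a secreted inhibitor that binds Wnt ligands, was high in coronal libraries (82.3 to 119 CPM) and low in sagittal ones (15.5 to 21 CPM). Of 17 FGF genes, 1 was called in frontal, 3 in lambdoid and 1 in sagittal sutures, and none in the coronal suture. Of 21 BMP genes, Bmp3, the BMP most abundant in bone, was higher in coronal (193 to 249 CPM against 55.8 to 140 CPM), Chrdl1 in frontal and Gdf5 in lambdoid sutures. Of 12 retinoic acid genes, Stra6, the retinol uptake receptor, was higher in coronal (12.4 to 20 CPM against 0.645 to 7.15 CPM) and lower in lambdoid sutures. The synthesis gene Aldh1a1 was lower in coronal and higher in sagittal sutures (17.7 to 29.3 CPM), where Aldh1a3 was lower.

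Of 93 human craniosynostosis genes measured, 4 were higher and 4 lower in coronal, 2 and 0 in frontal, 1 and 0 in lambdoid, and 3 and 3 in sagittal sutures. The frontal and lambdoid counts lay near the shares of all genes called higher (1.47% and 1.58%). Zic1 and Lmx1b were lower in coronal and higher in sagittal sutures, Msx2 was higher in sagittal (61.8 to 113 CPM against 21.8 to 63.7 CPM) and Fgfr3 in lambdoid sutures, and Alpl and Phex were higher in coronal and lower in sagittal sutures. Of 28 genes of mouse craniosynostosis, 1 was higher and 1 lower in coronal, 1 and 0 in frontal, 1 and 0 in lambdoid, and 2 and 2 in sagittal sutures.

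Genes that respond quickly to handling of tissue and genes of other cell types were counted in the same way, beside the same shares of all genes. Of 10 immediate early and stress genes, Fos, Fosb, Egr1, Atf3 and Dusp1 were higher in the coronal suture, with Egr1 at 46.5 to 79.8 CPM against 13.2 to 33.5 CPM, and the list summed to 156 to 263 CPM in coronal and 58.3 to 124 CPM in other libraries. Fosb was lower in the frontal suture. Of 11 macrophage genes, Cd68 and Csf1r were higher in coronal and Lyz2 in frontal sutures, and Cd68 was lower in the sagittal suture. Cd68 and Csf1r are also expressed by osteoclasts and their precursors. Of 6 epidermis genes measured, Cdh1 was higher in coronal (7.84 to 13.8 CPM against 0.0911 to 4.29 CPM) and lower in lambdoid sutures, and Perp was higher in frontal sutures. Of 8 neural genes, Map2 was lower in coronal, and Dcx was higher in lambdoid (3.3 to 5.92 CPM) and lower in sagittal sutures (0.0905 to 0.319 CPM). Of 6 erythroid genes Slc4a1 was higher in frontal, of 4 neutrophil genes Ngp was lower in lambdoid, and of 9 mural genes Tagln was higher in sagittal sutures. Of 14 proliferation genes, 6 melanocyte and Schwann cell genes, 4 sex-linked genes, 1 adipocyte gene and 1 Hox gene, none was called. The part of handling and of tissue taken in these differences was not tested.

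The captured libraries gave the same contrasts with 5 embryos a suture, in samples labelled separately. Each region of a suture was tested against the mean of that region in the other 3 sutures in edgeR (quasi-likelihood F-test), and p-values were adjusted over all genes by the Benjamini-Hochberg method, at a threshold of 0.05. Embryos, told apart by litter identifier, do not recur between sutures, and each suture has its own code. Suture and anything shared by libraries of a code can therefore not be told apart in these tests, whereas the complete libraries hold all 4 sutures under each code. Genes had to pass the same filter in the captured libraries, which the 5 libraries of 1 suture could pass alone, so the shares below describe the genes that passed and are no support for the rest.

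The genes called in the complete sutures passed the test in the same direction in SM to differing degrees. Of the 374 genes higher in the complete coronal suture, 293 were tested in SM and 160 were higher there (54.6% against 21.3% of all genes), and of the 367 lower genes 322 were tested and 232 were lower (72% against 20.2%). For the sagittal suture, 107 of 129 genes were higher in SM (82.9% against 19.2%) and 38 of 142 lower (26.8% against 13.9%), while 10 of those 142 were higher. For the frontal suture the counts were 127 of 229 (55.5% against 8.25%) and 46 of 128 (35.9% against 8.6%). The frontal SM library of embryo 3 had 33.5% of counts on mitochondrial genes, against 16% to 25.9% in other SM libraries. Its part was not tested. The lambdoid suture had the lowest shares, 42 of 189 higher genes (22.2% against 11.2%) and 7 of 40 lower genes (17.5% against 10.4%), and 10 of those 40 were higher in its SM. In all, calls in the opposite direction in SM were made for 18 higher and 12 lower coronal genes, 5 and 7 frontal, 9 and 10 lambdoid, and 1 and 10 sagittal.

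In captured OF the frontal suture had the highest shares, with 118 of 199 genes higher (59.3% against 20.5%) and 60 of 131 lower (45.8% against 20.7%). Of the 5 frontal OF libraries, those of embryos 2 and 5 had 35.6% and 52.3% of counts on mitochondrial genes, against 14.3% to 27.5% in the other OF libraries. Without them the frontal counts were 98 of 212 higher genes (46.2% against 11.2%) and 51 of 136 lower genes (37.5% against 16.9%), so that the share of all genes higher in frontal OF fell from 20.5% to 11.2%. The part of RNA quality was not tested. With all libraries, the coronal counts were 89 of 309 (28.8% against 13.4%) and 91 of 282 (32.3% against 11.4%), and the lambdoid counts 28 of 172 (16.3% against 5.71%) and 10 of 42 (23.8% against 7.24%). In the sagittal OF 29 of 116 genes were higher, a share of 25% beside 21.9% of all genes, and 39 of 134 were lower (29.1% against 15.9%). The frontal libraries of embryos 2 and 5 also enter the mean of these contrasts. Without them the coronal shares were 34.8% (against 19.7% of all genes) and 33.1% (17.1%). The lambdoid shares were then 16.7% (7.75%) and 22.7% (9.22%), and the sagittal ones 28.3% (24.5%) and 26% (17.8%). Calls in the opposite direction in OF were made for 32 higher and 15 lower coronal genes, 4 and 20 frontal, 4 and 4 lambdoid, and 16 and 17 sagittal genes.

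**Figure D3:**
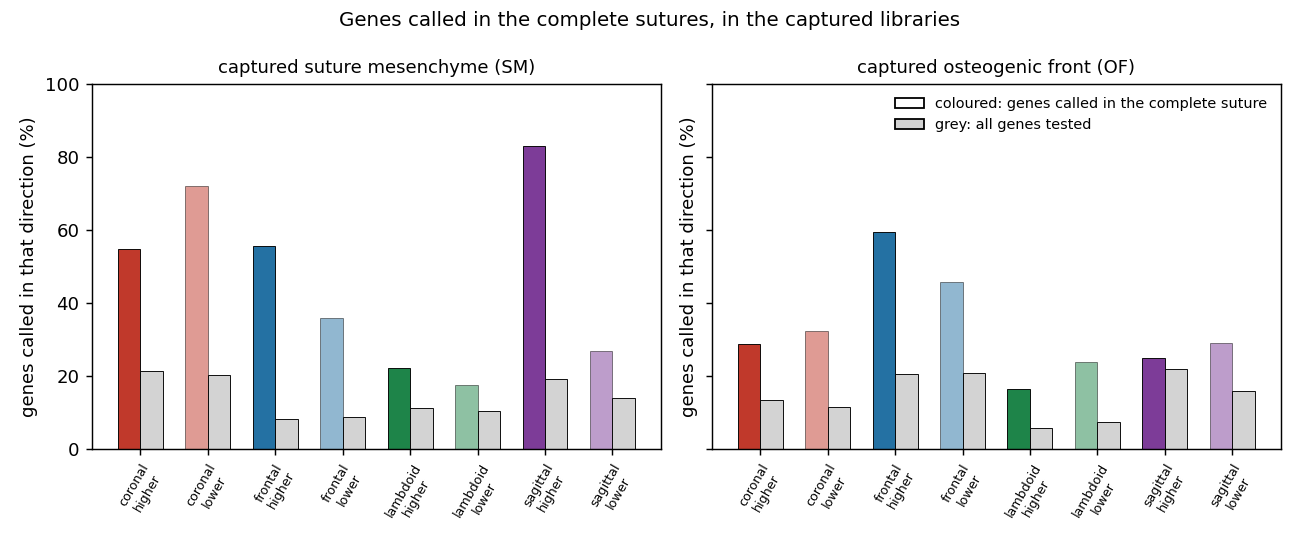
Percentage of genes called in a complete suture that had the same direction at an adjusted p under 0.05 in captured SM (left) or OF (right) of that suture (coloured bars), beside the percentage of all genes tested called in that direction (grey bars). The bars range from 82.9% beside 19.2% for sagittal higher genes in SM to 16.3% beside 5.71% for lambdoid higher genes in OF.

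The captured and complete libraries were also fitted together with a term for the set, each captured library being placed in the set whose code is that of its suture. That placement is an assumption, and a measure that differed between the sets did not follow it in coronal libraries. Ribosomal protein genes took 0.693% to 1.52% of counts in captured coronal libraries, against 3.26% to 4.89% in complete libraries of set C. In captured sagittal libraries they took 3.29% to 4.87%, against 3.23% to 4.72% in set S. In the captured frontal and lambdoid libraries they took 0.47% to 1.68%, against 1.21% to 1.83% in sets IF and L. Called in SM were then 18.2% (higher) and 17.6% (lower) of all genes in coronal, 5.02% and 4.34% in frontal, 4.67% and 4.87% in lambdoid, and 3.23% and 3.41% in sagittal sutures. In OF the shares were 12% and 13.3%, 9.03% and 9.82%, 1.93% and 2.31%, and 5.98% and 2.91%. Of the genes called in the complete sutures and tested in this fit, 39.9% of the higher and 58.5% of the lower coronal genes were called the same way in SM, 39.6% and 17.2% of the frontal, 13.1% and 12.8% of the lambdoid, and 59.8% and 13.8% of the sagittal genes. In OF these shares were 21.5% and 27.7%, 36.7% and 22.5%, 7.32% and 13%, and 8.59% and 12%. Opposite calls in SM were made for 24 higher and 14 lower coronal genes, 4 and 7 frontal, 4 and 8 lambdoid, and 1 and 5 sagittal. For the lower lambdoid genes, 6 were called the same way. In OF the opposite calls were 34 and 18, 3 and 17, 1 and 2, and 8 and 8. This count of the genes called in the complete sutures, which also enter this fit, was chosen after the data had been seen, and it is no independent evidence of their direction. The complete libraries entered the fit as separate samples although they are repeats of 1 sample a suture, so its calls rest in part on repeats counted as replicates.

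Named genes held in captured tissue to differing degrees. Tfap2b was higher in frontal SM by 6.16 (log2, edgeR adjusted p = 4.4e-09) and in frontal OF by 7.85 (edgeR adjusted p = 5.4e-14), and Tfap2a, Shox2 and Eya4 passed the test in both regions. Tfap2b was also called higher in coronal OF. Mmp9 was higher in coronal SM by 4.41 (edgeR adjusted p = 9.7e-09) and in coronal OF by 3.53 (edgeR adjusted p = 0.00016). Cpa3 was lower in coronal SM (-7.34, edgeR adjusted p = 2.5e-11), and Alx1 was lower in lambdoid SM (-3.59, edgeR adjusted p = 1.8e-10) and OF (-3.53, edgeR adjusted p = 2.1e-09). Alx1 was called lower in sagittal SM and OF as well. Col2a1 was higher in lambdoid SM by 2.27 (edgeR adjusted p = 1.8e-07), and Lrp1b in sagittal SM by 3.65 (edgeR adjusted p = 5.3e-10). Col2a1 was called higher in frontal and sagittal SM as well and lower in coronal SM. The low coronal level entered the mean of each of the higher contrasts. Other genes were absent from the captured tests because of their low level: Calcr, Adcyap1, Aox3, Cldn11, Matn1, Susd5, Cytl1, Ncmap, Meltf and Tnni1 did not pass the filter in either region. Ptgds and Oscar were tested and did not pass in coronal SM (-0.66, edgeR adjusted p = 0.62, and 1.19, edgeR adjusted p = 0.25). In frontal OF, Ptgds was higher (40.8, 2.46, 1.08, 8.39 and 2.36 CPM against 0 to 15 CPM, a difference of 2.87, edgeR adjusted p = 0.0028), opposite to its call in the complete frontal suture. Of 11 dura and meninges genes tested in frontal OF, 8 were higher, beside 20.5% of all genes.

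Hhip was called in all 3 kinds of coronal library, with unlike sizes. In captured SM it stood at 333, 679, 433, 373 and 518 CPM in the 5 coronal embryos and at 0.607 to 40 CPM in the other 15, a difference of 5.31 (edgeR adjusted p = 1.8e-12). In captured OF it stood at 209 to 316 CPM against 55.3 to 126 CPM, a difference of 1.62 (edgeR adjusted p = 1.3e-10). Gas1, which was lower in the complete coronal suture, was instead higher in coronal SM (74.4, 101, 55.3, 86.2 and 57.9 CPM against 35.9 to 62.3 CPM, a difference of 0.62, edgeR adjusted p = 0.00062).

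The summed level of the osteoblast list, of which Col1a1 was the largest part in coronal SM, ranked the sutures differently in complete libraries and in captured SM. It came to 26100 to 44400 CPM in complete coronal libraries, above the complete frontal (9270 to 13500 CPM) and sagittal libraries (13800 to 22900 CPM) and overlapping the lambdoid ones (16200 to 28800 CPM), but to 8170 to 11800 CPM in coronal SM, below the SM of every other suture (16100 to 38400 CPM). Of 14 osteoblast genes tested in SM, Alpl, Dlx5 and Sp7 were higher in the coronal suture, a share near the 21.3% of all genes, and Col1a1 was lower. The median difference of these genes was 0.58 (log2) against -0.03 for all genes, so that the sum and the median lay on opposite sides. Col1a1, a chain of type I collagen, had 7840 to 11100 CPM in coronal SM. In coronal OF, the osteoblast list differed between the 2 fronts that were summed per embryo. These had 15700 and 33800, 39400 and 61900, 19400 and 37500, 17500 and 32800, and 17200 and 32800 CPM in embryos 1 to 5. Of 17 osteoblast genes tested in summed coronal OF, 8 were lower and 1 was higher, beside 11.4% and 13.4% of all genes. Spp1 was lower there (16.3, 64.6, 26.5, 104 and 132 CPM against 51.7 to 3640 CPM, -2.41, edgeR adjusted p = 0.0008), and so were Bglap and Bglap2, all of which were higher in the complete coronal suture. The osteoclast list kept the same order of medians in all 3 kinds of library, over a narrower range in captured ones. The medians were 1680, 388, 273 and 220 CPM in complete coronal, lambdoid, sagittal and frontal libraries, 391, 371, 301 and 296 CPM in SM and 346, 298, 257 and 227 CPM in OF. Single captured libraries of different sutures overlapped, with 265 to 431 CPM in coronal and 226 to 417 CPM in lambdoid ones. Of 8 osteoclast genes tested, 4 were higher in coronal SM and 3 in coronal OF, where 21.3% and 13.4% of all genes were higher.

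The muscle list reached 2090 to 2750 CPM in complete lambdoid and 815 to 1080 CPM in complete coronal libraries, and at most 102 CPM in any captured library. The cartilage list reached 6080 to 9200 CPM in complete lambdoid libraries and 436 to 601 CPM in captured lambdoid ones. Complete frontal libraries had less cartilage RNA than the others (331 to 391 CPM), while captured frontal SM (275 to 431 CPM) overlapped coronal SM (307 to 382 CPM) and lay below lambdoid and sagittal SM (456 to 587 CPM). Of 14 cartilage genes tested in SM, 5 were higher in the frontal suture, Col2a1, Col9a1 and Hapln1 among them, and Sox5 and Acan were lower. In frontal SM 8.25% of all genes were higher and 8.6% lower. Of 13 cartilage genes tested in OF, 5 were higher and Sox5, Sox9 and Col11a2 were lower, beside 20.5% and 20.7% of all genes. Mast cell genes kept their direction in the coronal and frontal sutures: 7 of 7 were lower in coronal SM (20.2% of all genes) and 7 of 7 higher in frontal SM (8.25%). In lambdoid SM (11.2%), too, 7 of 7 were higher, and in sagittal SM (19.2%) 5 were, while none was called in the complete lambdoid suture. Summed, the mast cell list overlapped between lambdoid SM (301 to 479 CPM, median 387) and frontal SM (352 to 567 CPM, median 372). Complete frontal libraries (245 to 335 CPM) lay above complete lambdoid ones (88.1 to 117 CPM). The dura and meninges list had 303 to 731 CPM in complete libraries and 27.7 to 213 CPM in captured ones. How much tissue next to the suture each complete sample held was not measured, and its part in these differences was not tested.

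**Figure D4:**
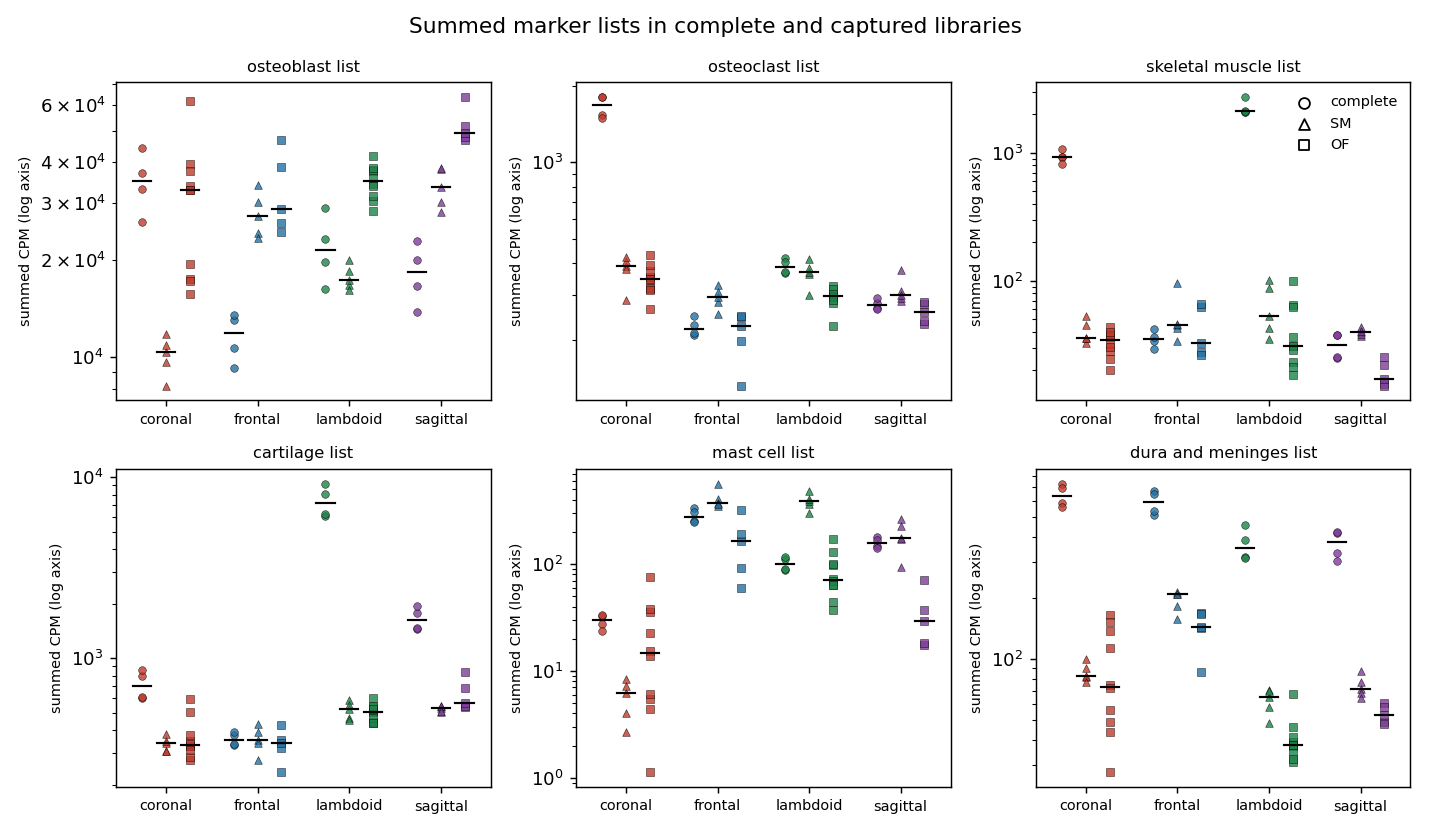
Summed CPM (log axes) of 6 marker lists in complete libraries, captured SM and captured OF of each suture (circles, triangles and squares for single libraries, bars at the median). Osteoclast, muscle and cartilage lists are high in complete coronal (1490 to 1810 CPM), lambdoid (2090 to 2750 CPM) and lambdoid (6080 to 9200 CPM) libraries, respectively, and not in captured libraries of the same suture.

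The direction in both captured regions was then counted. Of genes tested in all 3 kinds of library and called in the complete suture, 167 of 556 in coronal, 127 of 314 in frontal, 26 of 199 in lambdoid and 52 of 236 in sagittal sutures had the same direction in SM and OF. These shares were 30%, 40.4%, 13.1% and 22%. Of all genes, 18.2%, 12.4%, 8.03% and 22.6% were called alike in SM and OF, counted in either direction. That is a wider count than the direction of the complete call. The sagittal share did not exceed it, but the comparison cannot show whether it exceeds a share counted in the direction of the call. Opposite in both SM and OF were 8, 5, 4 and 2 genes, respectively, and opposite in at least 1 of them 61, 24, 23 and 34. The lambdoid genes included Sfrp2, which was called lower in the complete suture (178 to 305 CPM) and was higher in lambdoid SM (1760 to 2810 CPM, 1.09, edgeR adjusted p = 6.8e-07). Both contrasts were against a mean that the low coronal level entered. The sagittal genes were Dcx, a microtubule protein of young neurons, and Ncan, a neural proteoglycan. Dcx stood at 57.4, 61.8, 106, 0.141 and 0.276 CPM in the 5 sagittal SM libraries, so that it was high in 3 embryos and near 0 in 2, and at 0.0905 to 0.319 CPM in all complete sagittal libraries. Of 10 neural genes tested, 8 were higher in sagittal SM (19.2% of all genes) and 9 in sagittal OF (21.9%). The neural list summed to 58.5 to 363 CPM in sagittal SM against 32.1 to 67 CPM in the SM of other sutures, and to 58.3 to 74.6 CPM in complete sagittal libraries. This signal stands beside the sagittal counts in SM and OF above, and its part in them was not tested.

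Fewer genes were called for any single set than for any suture. Each set was compared with a mean that held its closest set, and the comparison of paired sets given below called more genes. By the same rule over the 4 sutures, 166 genes were higher in set C (0.842%) and 6 lower (0.0304%), 13 higher in set IF (0.066%) and 147 lower (0.746%), 15 higher in set L (0.0761%) and 101 lower (0.512%), and 134 higher in set S (0.68%) and 25 lower (0.127%). In all, 356 genes were called in at least 1 set and 1327 in at least 1 suture, with 10 in common. Of 86 ribosomal protein genes, 45 were higher in set C and 36 in set S, while 42 were lower in set IF and 26 in set L. Rps29, a protein of the small ribosomal subunit, was higher in set C by 2.45 ± 0.19 and lower in set L by -2.19 ± 0.21 (SD over 4 sutures). Ribosomal protein genes took 3.23% to 4.89% of counts in sets C and S and 1.21% to 1.83% in sets IF and L.

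Sets C and S together were compared with sets IF and L together after this split had been seen. Within every suture 506 genes were higher in sets C and S (2.57%) and 54 lower (0.274%), among them 72 of 86 ribosomal protein genes as higher, with a median difference of 1.65. The higher genes had a median summed exon length of 964 bases and the lower ones of 347 bases, against 3540 bases for all genes tested. Depth moved with this split, since sets C and S were the deeper libraries, and its part was not tested. Every set holds the 4 sutures, and each complete suture was compared within its set. Each captured suture carries a code of its own, so suture and code cannot be told apart there. Among captured libraries, only the sagittal ones had ribosomal protein shares (3.29% to 4.87%) like those of sets C and S. The coronal ones, of code C, had 0.693% to 1.52%. The part of this profile in the sagittal contrasts was not tested on its own.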

How the data were processed

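Total RNA of complete sutures, SM and OF was obtained by laser capture, extracted with Picopure columns, amplified with Ovation RNA-Seq V2, made into Nextera XT libraries and sequenced on a HiSeq 2500. The authors trimmed reads with cutadapt, aligned them to mm10 with STAR 2.5.3a and deposited, per library, the count of read pairs on the exons of 55487 GENCODE genes, written by featureCounts 1.6.4 without regard to strand. The deposited count of a gene is thus a raw whole number. Reads of overlapping or antisense genes cannot be told apart in them. Of the gene identifiers, 55394 were matched to a symbol. A table of log2 ratios that the authors computed between groups, the single-cell files, the E16.5 libraries and second libraries of the same tissue were not used.

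Tables were joined in Python 3.11.15 (pandas 2.3.3, numpy 2.4.6) and analysed in R 4.3.3. Libraries were grouped by the suture, region and code of their labels. Genes with at least 1 CPM in more than 10% of libraries were kept, scaled by TMM and turned into log2 CPM with a prior count of 2, which understates differences of low genes. In the complete libraries, the difference between a suture and the mean of the other 3 was taken within each set, and the SD is over the 4 sets. It describes repeats of 1 sample. SM and OF of E18.5 were fitted separately by the quasi-likelihood test of edgeR 4.0.16, two-sided, with the counts of both fronts of an embryo summed in coronal and lambdoid sutures. Their first libraries held 7305627 to 29099736 counts. Depth differed by suture: SM libraries held 20133332 to 23075597 counts in coronal and 13162255 to 16295927 in sagittal sutures. Frontal SM held 7487020 to 11934879 counts and lambdoid SM 7305627 to 8376486. The part of depth in the captured counts was not tested. The scripts were tested on simulated counts. Plots were made with matplotlib 3.10.9.

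The members and gene lists were chosen with earlier results of these data known. The craniosynostosis lists are those of the study. Genes named are, per suture, the 8 higher and 4 lower genes with the widest gap to the nearest suture in the set where that gap was smallest, with at least 5 CPM on the higher side, and up to 4 called members per list and suture with the largest mean difference. For every gene named by this gap, a lack of overlap with other sutures follows largely from that choice. Further list members, Sfrp2, Dcx, Cxcl12 and genes given only by name among them, were named after their values had been seen. A few genes that the rule named are not reported here. Alternatives were scaling by median ratios or by totals alone, other filters, prior counts and folds, DESeq2 1.42.0, a replicate block, a set term, each set, suture or replicate left out, and 2 frontal OF libraries left out.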

Additional observations from a re-analysis of the deposited data

Results flagged for a closer look

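In 13 of 200 groups of 4 differences (a reported gene in a suture, 1 value a set), 1 set stood apart from the other 3 by Dixon's criterion at the 95% level, and chance flags about 1 in 20 groups. In the coronal suture these were Acp5 (5.02) and Tbx18 (-2.6) in set C, Slc6a13 (2.73) and Foxd1 (-3.12) in set L, and Cnmd (-2.45) in set S, all as log2 differences from the other sutures. In the frontal suture Pi16 (1.78) and Thbs4 (-2.91) stood apart in set S. In the lambdoid suture they were Col2a1 in set IF (4.54), Mylpf in set L (5.19) and Actc1 in set S (5.54). In the sagittal suture they were Slc6a13 in set C (-4.94), and Fmod (1.29) and Wif1 (-1.1) in set S. Each of these values had the direction of the other 3 sets.

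In 3 genes named in the sagittal suture, captured SM and OF lay on opposite sides of 0. Chodl was 1.15 higher in sagittal SM (log2) and differed by -1.07 in OF, Thbs2 by 0.26 in SM and -0.58 in OF, and Entpd3 by -0.69 in SM and 0.93 in OF. The difference between the regions was not tested.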

How the results depend on the processing

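The counts of genes called in the complete sutures (741 coronal, 485 frontal, 358 lambdoid and 367 sagittal) stayed within 1.5 times under median-ratio size factors, total counts, no filter on low counts and a prior count of 0.5. A 3-fold rule gave 269, 173, 174 and 113 genes, and 19, 15, 5 and 7 for sets C, IF, L and S (172, 160, 116 and 159 in the report). Differences from each of the other 3 gave 204, 87, 107 and 34 genes, and 0, 0, 0 and 4 for the sets. With at least 5 CPM, 313 frontal and 219 lambdoid genes were called, and 74 and 100 in sets L and S. These alternatives test stricter rules or fewer genes by construction. With 1 set left out, a gene had to pass in 3 sets only, and 880 to 894, 580 to 620, 438 to 459 and 471 to 504 genes were called. With 1 suture left out, the sets had 218 to 249 (C), 231 to 280 (IF), 187 to 222 (L) and 221 to 296 genes (S). Without TMM, the median over all genes moved to between -0.121 and 0.169, and the share of higher genes fell from 36.2% to 25.1% in the sagittal suture (100 higher, 299 lower) and rose from 8.12% to 29.4% in set IF (37 higher, 89 lower). Of the complete-suture values of single named genes under other scalings, filters, a prior count of 0.5 and each set left out, 1954 stayed within their spread, 62 moved and 0 reversed. Leaving out 1 of 4 sets could hardly move a mean beyond the SD of those sets or reverse a called gene. All 225 values stayed in each of these 4 cases, which therefore say little. Those that moved did so under total counts (31), a prior count of 0.5 (30) and at least 5 CPM (1).

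In captured SM, 8182, 3322, 4252 and 6528 genes (coronal, frontal, lambdoid, sagittal) passed the edgeR test, and 4667, 7751, 2434 and 7110 in OF. The set term gave 1893, 1929 and 1342 genes in frontal, lambdoid and sagittal SM and 3703, 834 and 1748 in the same OF. With 1 replicate number left out, the counts were 6963 to 8128, 2245 to 2713, 2939 to 4357 and 4879 to 6118 in SM, and 2736 to 4982, 6051 to 7279, 1219 to 1780 and 5706 to 6547 in OF. The coronal OF count was 2736 without replicate 3 and 3058 without replicate 4, and the lambdoid OF count was 1470, 1556, 1324 and 1219 without replicates 1, 2, 3 and 4. The cause was not tested. Without the frontal libraries of embryos 2 and 5, an alternative chosen after the data had been seen, 7130 coronal OF genes passed, and the other OF counts stayed within 1.5 times. DESeq2 and the other settings kept every captured count within 1.5 times. The replicate numbers do not pair embryos between sutures. Same-numbered samples had residual correlations of -0.122 to 0.0597 in SM and -0.155 to 0.136 in OF. With the number as a replicate block, 7924, 3148, 3940 and 6288 genes passed in SM and 4427, 7267, 2129 and 6825 in OF.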
